A study of Mus musculus with 2 samples.

Results

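The genes described here are 10 components of inflammasomes, pyroptosis and necroptosis, chosen by symbol from a deposited table of 17943 genes, and all 10 were found. They comprise the sensors Nlrp3, Mefv, Nlrc4 and Nlrp1b, the adaptor Pycard, the caspases Casp1 and Casp4, the pore former Gsdmd, and the necroptosis genes Ripk3 and Mlkl. RNA came from the lungs of C57BL/6 mice of wild-type genotype, 6 to 8 weeks old, that had received adenovirus through the nose over 3 days. The Adv-IL-17B group received a virus for interleukin 17B, a cytokine of the IL-17 family, and the Adv-EV group received the virus that the titles call Adv-EV. All mice thus received adenovirus, and the groups hold no animals without virus. The labels give 1 library per group although the design text speaks of triplicates, and they do not say whether a library pools several mice.

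Inflammasomes are protein platforms that assemble in the cytosol when a sensor meets a microbial product or a sign of cell damage. The sensor recruits the adaptor ASC and caspase-1, which matures interleukin 1β and interleukin 18 and cuts gasdermin D, whose fragment opens pores in the plasma membrane in the lytic death called pyroptosis. Necroptosis is a separate lytic death in which the kinase RIPK3 phosphorylates the pseudokinase MLKL, which then permeabilises the membrane. In lung these pathways are best known in macrophages, monocytes, neutrophils and epithelial cells that meet inhaled microbes or viruses.

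Values are FPKM, fragment numbers divided by the length of the transcript and the size of the library, which allows levels to be compared between genes as well as between libraries. Steps in the low values put the depth at about 5530000 fragments in Adv-IL-17B and 5520000 in Adv-EV. Since each group has 1 library, the spread between mice is unknown and no test was run. All intervals are 95% intervals on estimated fragments and cover counting error only. Il17b itself stood at 93.2 FPKM in Adv-IL-17B and was listed at 0 in Adv-EV. Alveolar epithelial markers, the defining genes of lung tissue, were abundant in both libraries, with a summed level over 10 genes of 17665 FPKM in Adv-IL-17B and 27879 FPKM in Adv-EV. Most of each sum was the single gene Sftpc, at 11922.4 FPKM in Adv-IL-17B and 20843.5 FPKM in Adv-EV.

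All 10 genes stood higher in the Adv-IL-17B library, by 1.36-fold to 3.98-fold on plain FPKM. A size rule was set at a 2-fold ratio on FPKM + 0.1, applied to genes that averaged 0.5 FPKM or more. All 10 genes passed that filter, and each also reached 0.5 FPKM in either library alone. By this rule 4 of the 10 were higher (Nlrp3, Mefv, Nlrc4 and Mlkl) and 0 were lower, where 3.95% of the 15056 genes tested were higher and 2.68% lower. The median log2 ratio of the 10 was 0.84, against -0.01 over all genes tested. Ratios above 0 were found for 48.6% of all genes tested. The 10 genes were chosen with earlier results of these data known, so the shares over all genes are given for scale only. The counting interval of the ratio lay above equal levels for 9 of the 10, all but Nlrp1b, and above 2-fold for Nlrp3 and Mefv. Summed over the 10 genes, the level was 158 FPKM in Adv-IL-17B and 83.3 FPKM in Adv-EV.

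**Figure D1:**
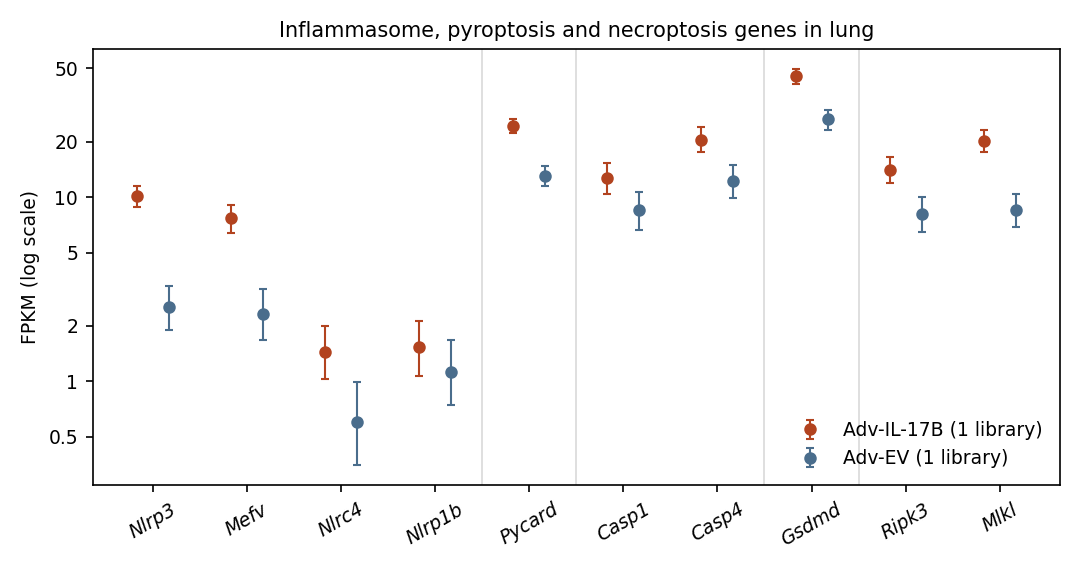
FPKM of each of the 10 genes on a log axis in the Adv-IL-17B library (left point of each pair) and the Adv-EV library (right point), with bars for the 95% counting interval of the level. Genes run from sensors to adaptor, caspases, pore former and necroptosis genes, and every gene sits higher in Adv-IL-17B, with Gsdmd highest and Nlrc4 and Nlrp1b lowest in both libraries.

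The sequence before the transcription start is shown for Nlrp3, the gene with the highest ratio, and for Casp4, since these were the members that held a match to a motif searched here. Sequences are from RefSeq, build GRCm38.p6, read 5′ to 3′ on the strand of the gene and ended where an annotated transcript of that gene begins. The Nlrp3 window is chr11:59541319-59541567 and the Casp4 window is chr9:5308599-5308827, both on the plus strand. Capitals mark matches on either strand to GGGNNTTCC, a short form of the kappaB motif bound by NF-kappaB factors.
Nlrp3: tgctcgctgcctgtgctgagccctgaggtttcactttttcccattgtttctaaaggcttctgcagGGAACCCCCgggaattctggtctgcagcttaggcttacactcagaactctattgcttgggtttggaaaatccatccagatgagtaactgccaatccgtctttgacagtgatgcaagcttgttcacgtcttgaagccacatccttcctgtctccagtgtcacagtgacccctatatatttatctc
Casp4: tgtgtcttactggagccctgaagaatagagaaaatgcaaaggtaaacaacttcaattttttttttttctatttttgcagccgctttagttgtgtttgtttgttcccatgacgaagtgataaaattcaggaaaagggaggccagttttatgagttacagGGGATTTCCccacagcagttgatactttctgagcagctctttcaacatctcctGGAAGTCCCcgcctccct

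In full, 4 motifs were searched on both strands of the 250 bases before each annotated start. They were GGGNNTTCC (kappaB), GAAANNGAA (a short form of ISRE, the element of interferon-stimulated genes), TTCNNNGAA (GAS, bound by STAT factors) and TGANTCA (AP-1). Windows were matched by symbol for 9 of the 10 genes, all but Gsdmd, and gave 12 windows. Annotations place some starts differently, so a window could reach into its gene, as for Nlrc4 and Casp4. In Mefv, 163 bases of the window lay before the gene by all annotations used. Nlrp3 and Casp4 held matches, in each case to kappaB alone. In the printed Nlrp3 window the match is GGGGGTTCC on the opposite strand, 184 to 176 bases before the start that follows the window. The window of its other annotated start, which lies inside the gene, held GGGCTTTCC, 94 to 86 bases before that start. In Casp4, GGGATTTCC lay 71 to 63 bases before the start that follows the printed window, and GGGACTTCC lay on the opposite strand 18 to 10 bases before it.

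Such matches are common. Among 32851 windows of the same length, 4.98% held this kappaB form, 7.13% the ISRE form, 7.02% GAS and 6.75% AP-1. With longer forms of 10 letters, 1 base more each, Casp4 was the only member with a kappaB match and none had ISRE, where 1.41% and 2.98% of all windows held them. A match describes letters and not binding, and none of these overlapped another motif searched. Nlrp3 had the highest ratio of the 10 and Casp4 was not past 2-fold, while Mefv, Nlrc4 and Mlkl were past 2-fold with no match in these windows.

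The sensors spread more widely than the other genes. Nlrp3, which assembles an inflammasome after potassium efflux and other damage signals, is on chromosome 11 from 59541568 to 59566956 of mm10. Its level was 10.1 FPKM in Adv-IL-17B, on about 224 fragments, and 2.53 FPKM in Adv-EV, on about 56 fragments. That is 3.98-fold higher in Adv-IL-17B (interval 2.97 to 5.46), the highest ratio of the 10. Of all genes tested, 1.12% had a ratio at least as high.

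Mefv encodes pyrin, a sensor that responds to certain bacterial toxins, and lies on chromosome 16 from 3707218 to 3718097. It stood at 7.66 FPKM in Adv-IL-17B and 2.31 FPKM in Adv-EV, on about 131 and 40 fragments. The ratio was 3.32-fold (interval 2.28 to 4.79), and 1.44% of all genes tested had one at least as high. Set against each other, the Nlrp3 ratio was 1.20 times the Mefv ratio, with an interval of 0.749 to 1.98 that holds 1.

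Nlrc4, whose product joins NAIP proteins that bind flagellin and secretion system proteins, lies on chromosome 17 from 74425438 to 74459142. It was the lowest of the 10, at 1.44 FPKM in Adv-IL-17B and 0.60 FPKM in Adv-EV, on about 38 and 16 fragments. Its ratio of 2.40-fold had a wide interval, 1.29 to 4.56, and its log2 ratio was 1.14 with the pseudocount of 0.1 and 0.61 with a pseudocount of 1, which is inside 2-fold. Nlrp1b, a sensor cleaved by the anthrax lethal factor in some mouse strains, lies on chromosome 11 from 71153102 to 71230733. It stood at 1.54 FPKM in Adv-IL-17B and 1.13 FPKM in Adv-EV, about 35 and 26 fragments, a ratio of 1.36-fold with an interval of 0.787 to 2.33 that holds equal levels. A difference in Nlrp1b was therefore not detectable at this depth, and reads of Nlrp1b and its close relative Nlrp1a may have been divided between them.

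The adaptor and the enzymes stood between 1.497-fold and 1.87-fold higher. Pycard encodes ASC, the adaptor that links sensors to caspase-1, and lies on chromosome 7 from 127989708 to 127993867. It stood at 24.3 FPKM in Adv-IL-17B and 13.04 FPKM in Adv-EV, a ratio of 1.87-fold (interval 1.61 to 2.17). Pycard fragments were estimated with a transcript length of 3800 bp. With 2135 bp, the length inside the RefSeq span, the interval was 1.53 to 2.28. Other intervals that involve Pycard were not recomputed with that length and may be too narrow. A gene model on the opposite strand, Gm45205, shares 485 bp with Pycard exons, and reads of the pair cannot be told apart because the strand handling of the counting is unknown.

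Casp1, the caspase of canonical inflammasomes, and Casp4, the symbol of mouse caspase-11, which binds bacterial lipopolysaccharide in the cytosol, are neighbours on chromosome 9. Casp1 runs from 5298517 to 5307265 and Casp4 from 5308828 to 5336783, with a gap of 1.56 kb. Casp1 stood at 12.7 FPKM in Adv-IL-17B and 8.49 FPKM in Adv-EV (1.497-fold, interval 1.10 to 2.06). Casp4 stood at 20.5 FPKM in Adv-IL-17B and 12.2 FPKM in Adv-EV (1.69-fold, interval 1.30 to 2.18). Casp12, which follows Casp4 in the same cluster, stood at 4.25 FPKM in Adv-IL-17B and 4.33 FPKM in Adv-EV (interval of its ratio 0.681 to 1.42). The Casp4 ratio was 1.72 times that of Casp12 (interval 1.08 to 2.69), beyond counting error. The Casp1 ratio was 1.53 times that of Casp12 (interval 0.934 to 2.49), and the Casp4 ratio 1.13 times that of Casp1 (interval 0.741 to 1.69), so these differences were not detectable at this depth.

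Gsdmd, the gasdermin cut by both of these caspases, was the most abundant of the 10 in both libraries. It lies on chromosome 15 from 75862327 to 75867408 and stood at 45.2 FPKM in Adv-IL-17B and 26.4 FPKM in Adv-EV, about 447 and 261 fragments. The ratio was 1.71-fold (interval 1.47 to 2.001), and 6.2% of all genes tested had a ratio at least as high.

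The necroptosis genes were also higher in Adv-IL-17B. Ripk3 lies on chromosome 14 from 55784995 to 55788865, and its level was 14.03 FPKM in Adv-IL-17B and 8.08 FPKM in Adv-EV (1.74-fold, interval 1.32 to 2.27). Mlkl lies on chromosome 8 from 111311797 to 111338177, and its level was 20.2 FPKM in Adv-IL-17B and 8.51 FPKM in Adv-EV, about 224 and 94 fragments. Its ratio of 2.37-fold (interval 1.86 to 3.06) was past the size rule, and 2.67% of all genes tested had a ratio at least as high. The Mlkl ratio was 1.37 times the Ripk3 ratio, with an interval of 0.950 to 2.001 that holds 1.

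**Figure D2:**
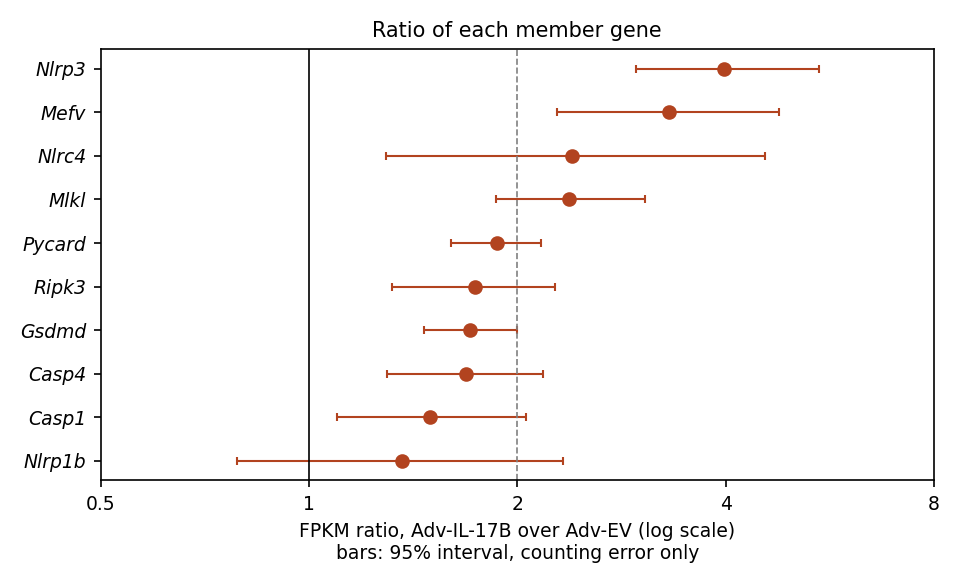
Plain FPKM ratio of each gene, Adv-IL-17B over Adv-EV, on a log axis with 95% counting intervals; the solid line marks equal levels and the dashed line 2-fold. The intervals of Nlrp3 and Mefv lie wholly above 2-fold, and only that of Nlrp1b reaches below 1.

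The ratios differed among the 10 by more than counting error. Each pair of genes was compared by dividing the higher ratio by the lower, with an exact interval that was not adjusted for the number of pairs. Of 45 pairs, 15 had an interval above 1. Nlrp3 was set apart in this way from 7 genes, namely Mlkl, Pycard, Ripk3, Gsdmd, Casp4, Casp1 and Nlrp1b. Mefv was set apart from 6, the same genes without Mlkl. Mlkl was set apart from Gsdmd and Casp1, by 1.39 times (interval 1.04 to 1.87) and 1.59 times (interval 1.06 to 2.38). Pairs among Pycard, Ripk3, Gsdmd, Casp4, Casp1 and Nlrp1b, and all pairs with Nlrc4, had intervals that held 1. These intervals say nothing of how the ratios would vary between mice.

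The order of levels was nearly the same in both libraries. In Adv-IL-17B it ran Gsdmd, Pycard, Casp4, Mlkl, Ripk3, Casp1, Nlrp3, Mefv, Nlrp1b and Nlrc4. In Adv-EV, Casp1 and Ripk3 changed places and the rest kept theirs. Neighbours in this order were compared by the ratio of their levels within 1 library. In Adv-IL-17B the interval of that ratio lay above 1 for 4 of 9 neighbouring pairs, Gsdmd over Pycard, Mlkl over Ripk3, Nlrp3 over Mefv (1.32, interval 1.06 to 1.65) and Mefv over Nlrp1b. In Adv-EV it did so for 4 of 9, Gsdmd over Pycard, Casp4 over Mlkl (1.43, interval 1.07 to 1.93), Ripk3 over Nlrp3 and Mefv over Nlrp1b. For the other 5 pairs in each library the interval held 1.

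Ratios between genes within 1 library do not depend on how the libraries were scaled. Nlrp3 stood at 0.414 of the Pycard level in Adv-IL-17B (interval 0.352 to 0.486) and at 0.194 in Adv-EV (interval 0.142 to 0.258). Against Casp1, Nlrp3 stood at 0.793 in Adv-IL-17B (interval 0.627 to 1.01) and 0.298 in Adv-EV (interval 0.206 to 0.429). Between the libraries, the first of these shares was 2.13 times as high in Adv-IL-17B (interval 1.53 to 3.03) and the second 2.66 times (interval 1.71 to 4.15).

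The other sensors did not all move this way against Pycard. Mefv stood at 0.315 of the Pycard level in Adv-IL-17B and 0.177 in Adv-EV, 1.78 times as high in Adv-IL-17B (interval 1.18 to 2.65). Nlrc4 stood at 0.0592 of Pycard in Adv-IL-17B and 0.0460 in Adv-EV, with an interval of 0.679 to 2.49 for the change. Nlrp1b stood at 0.0633 of Pycard in Adv-IL-17B and 0.0867 in Adv-EV, and the Pycard ratio was 1.37 times the Nlrp1b ratio (interval 0.783 to 2.42). For Nlrc4 and Nlrp1b a change relative to Pycard was therefore not detectable at this depth.

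For Gsdmd against Casp1, Casp4 against Casp1, and Mlkl against Ripk3, a change in balance was not detectable. Gsdmd stood at 3.55 times the Casp1 level in Adv-IL-17B (interval 2.87 to 4.44) and 3.11 times in Adv-EV (interval 2.38 to 4.12). Casp4 stood at 1.62 times Casp1 in Adv-IL-17B and 1.43 times in Adv-EV. Mlkl stood at 1.44 times Ripk3 in Adv-IL-17B (interval 1.17 to 1.79) and 1.05 times in Adv-EV (interval 0.775 to 1.42). The change between the libraries was 1.14 times for Gsdmd over Casp1 (interval 0.800 to 1.62), and the changes of the other pairs, given above with their genes, likewise had intervals that held 1.

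**Figure D3:**
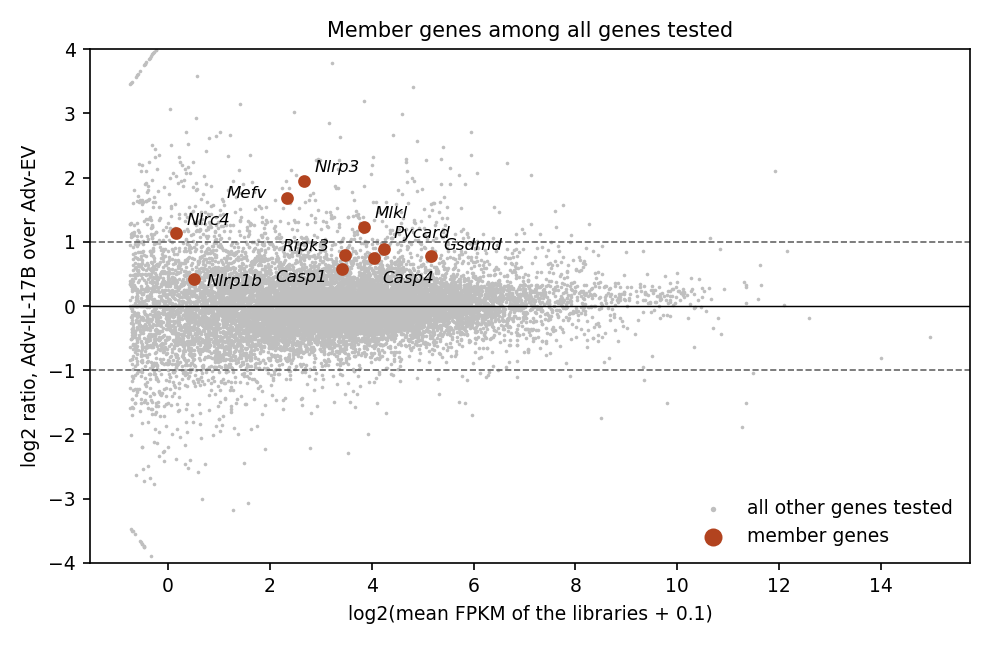
Each gene tested by its mean level, as log2(mean FPKM + 0.1), and its log2 ratio on FPKM + 0.1, Adv-IL-17B over Adv-EV; member genes are named in colour, and 134 other genes with a log2 ratio beyond 4 in size are outside the drawn range. The scatter of all genes is wide at low levels, where Nlrc4 and Nlrp1b lie, while Nlrp3, Mefv and Mlkl lie above the 2-fold line at higher levels.

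Other genes of these pathways, in 10 lists that overlap the members, were read in the same way. The lists were chosen with earlier results of these data known, so their counts are descriptive and not independent support. Beside the 10 members, 71 genes of the lists passed the filter. Of these, 12 were past 2-fold in the direction of Adv-IL-17B and 0 in the other, against 3.95% and 2.68% of all genes tested. The 12 include Nlrp12, which passed the filter only through its level in Adv-IL-17B. The median log2 ratio of the 71 was 0.30, and 57 had a ratio above 0, against 48.6% of all genes tested. The same shares apply beside the counts of each list below.

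Among 10 inflammasome sensors tested, 4 were past 2-fold, and the list's median log2 ratio was 0.78. With a pseudocount of 1, or a mean of at least 2 FPKM, this count was 2 (Nlrp3 and Mefv), without Nlrc4 and Nlrp12. Besides Nlrp3, Mefv and Nlrc4, the fourth was Nlrp12, an NLR whose role in sensing is less settled, at 1.03 FPKM in Adv-IL-17B and 0.33 FPKM in Adv-EV (interval of the ratio 1.57 to 6.12). The NAIP genes Naip2 (7.55 FPKM in Adv-IL-17B and 4.01 FPKM in Adv-EV) and Naip5 (6.23 FPKM and 3.9 FPKM in the same order) encode the receptors that hand bacterial ligands to NLRC4. Both were inside 2-fold, and reads of these similar genes may be shared among family members. In each library Naip2 and Naip5 stood well above Nlrc4 itself. A further 4 sensors were under the filter.

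Of 14 adaptor, partner and input genes, 3 were past 2-fold and the median log2 ratio was 0.62. Pstpip1, whose product binds pyrin, stood at 40.7 FPKM in Adv-IL-17B and 16.04 FPKM in Adv-EV (interval of the ratio 2.11 to 3.06). Tlr2, a receptor for bacterial lipopeptides whose signal primes inflammasome genes, stood at 50.8 FPKM in Adv-IL-17B and 19.2 FPKM in Adv-EV (interval 2.33 to 3.02). Irgb10, listed under Gm12250, encodes a GTPase that acts on bacterial membranes, and stood at 18.4 FPKM in Adv-IL-17B and 8.81 FPKM in Adv-EV. Its ratio had no counting interval. That ratio was inside 2-fold with a pseudocount of 1, or when the libraries were rescaled without their 10 most abundant genes. Below 2-fold, Gbp2, a guanylate-binding protein gene, stood at 96.8 FPKM in Adv-IL-17B and 54.3 FPKM in Adv-EV. Myd88, the Toll-like receptor adaptor gene, stood at 58.5 FPKM in Adv-IL-17B and 32.2 FPKM in Adv-EV.

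Not all partners stood higher. Txnip, a thioredoxin-binding protein linked to NLRP3, was the most abundant of the list, at 216 FPKM in Adv-IL-17B and 250 FPKM in Adv-EV (interval of the ratio 0.826 to 0.907). Nek7, a kinase that binds NLRP3 and was named here after its value was seen, stood at 19.0 FPKM in Adv-IL-17B and 24.9 FPKM in Adv-EV (interval 0.680 to 0.854). Nlrp3 and the gene of its binding partner Nek7 thus had ratios on opposite sides of equal levels, that of Nlrp3 being 5.23 times that of Nek7 (interval 3.81 to 7.31).

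The list of inflammatory caspases had a median log2 ratio of 0.58, with 0 of 3 genes past 2-fold. Of 3 gasdermin and membrane rupture genes tested, 1 was past 2-fold and the median log2 ratio was 0.77. This was Ninj1, whose product ruptures the plasma membrane after the pores form, at 79.7 FPKM in Adv-IL-17B and 36.7 FPKM in Adv-EV (2.17-fold, interval 1.86 to 2.54). Gsdme, the gasdermin cut by caspase-3 and listed under Dfna5, stood at 0.84 FPKM in Adv-IL-17B and 0.59 FPKM in Adv-EV, on about 10 and 7 fragments. Gsdmd was therefore the only gasdermin tested with more than a few fragments, and 3 further genes of the list were under the filter. Only 6 of the 11 genes listed were among the deposited genes, without Gsdma2, Gsdma3, Gsdmc, Gsdmc2 and Gsdmc4.

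Of the 7 genes for interleukin 1 family cargo and its antagonists, 4 were past 2-fold, and the median log2 ratio was 1.76. These were Il1a, Il1b, the receptor antagonist gene Il1rn and the decoy receptor gene Il1r2. For the cargo of caspase-1, Il1b stood at 49.7 FPKM in Adv-IL-17B and 14 FPKM in Adv-EV, whereas Il18, named after its value was seen, stood at 6.37 FPKM in Adv-IL-17B and 6.6 FPKM in Adv-EV (interval of the ratio 0.565 to 1.65). Its soluble inhibitor gene Il18bp stood at 42.8 FPKM in Adv-IL-17B and 22.6 FPKM in Adv-EV. Hmgb1, a nuclear protein gene whose product leaves lysed cells, stood at 137 FPKM in Adv-IL-17B and 141 FPKM in Adv-EV.

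The list of restraints and that of ESCRT-III genes had lower median ratios than the members. The antagonist genes Il1rn, Il1r2 and Il18bp, listed with the cargo, stood 4.44-fold, 3.45-fold and 1.90-fold higher in Adv-IL-17B. Of 8 restraints of inflammasomes and inflammatory caspases, only Tnfaip3, which encodes the ubiquitin-editing enzyme A20, was past 2-fold, and the median log2 ratio was 0.21. Tnfaip3 stood at 33.2 FPKM in Adv-IL-17B and 11.0 FPKM in Adv-EV. The serpin gene Serpinb9 stood at 66.9 FPKM in Adv-IL-17B and 54.1 FPKM in Adv-EV, and Trim30a, an interferon-induced TRIM gene, at 39.2 FPKM in Adv-IL-17B and 24.9 FPKM in Adv-EV. None of 12 genes of ESCRT-III, the machinery that removes pore-bearing membrane, was past 2-fold, and their median log2 ratio was 0.09. The most abundant of these were Chmp4b (242 FPKM in Adv-IL-17B and 175 FPKM in Adv-EV), Chmp2a (143 FPKM and 114 FPKM in the same order) and Chmp5 (83.2 FPKM and 102 FPKM).

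Around Ripk3 and Mlkl, 2 of 8 necroptosis kinase, executioner and sensor genes were past 2-fold, and the list's median log2 ratio was 0.41. Beside Mlkl the other was Zbp1, an interferon-induced sensor of nucleic acids that activates RIPK3. Zbp1 stood at 113 FPKM in Adv-IL-17B and 54.1 FPKM in Adv-EV (interval of the ratio 1.89 to 2.30), and was inside 2-fold when the libraries were rescaled without their 10 most abundant genes. The tumour necrosis factor receptor gene Tnfrsf1a stood at 81.5 FPKM in Adv-IL-17B and 73.4 FPKM in Adv-EV, and Eif2ak2, the gene of the RNA-sensing kinase PKR, at 17.1 FPKM in Adv-IL-17B and 16.04 FPKM in Adv-EV. Ripk1, the kinase upstream of RIPK3, was named after its value was seen and stood at 11.3 FPKM in Adv-IL-17B and 10.9 FPKM in Adv-EV (interval 0.901 to 1.20). Of the kinase pair, the Ripk3 ratio was 1.67 times the Ripk1 ratio (interval 1.22 to 2.27).

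None of 12 brakes and death-domain partners of necroptosis was past 2-fold, and their median log2 ratio was 0.18. Rbck1 (54.0 FPKM in Adv-IL-17B and 54.9 FPKM in Adv-EV) and Sharpin (28.9 FPKM and 26.4 FPKM in the same order) encode subunits of the linear ubiquitin ligase. Ppm1b, a phosphatase gene, stood at 25.5 FPKM in Adv-IL-17B and 29.6 FPKM in Adv-EV. Casp8, whose product cleaves RIPK3 and RIPK1, was named after its value was seen and stood at 25.7 FPKM in Adv-IL-17B and 18.6 FPKM in Adv-EV (interval 1.17 to 1.62).

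Of 4 other NOD-like receptor genes tested, 1 was past 2-fold and the median log2 ratio was 0.36. Nod2, which detects muramyl dipeptide of bacterial walls, stood at 3.57 FPKM in Adv-IL-17B and 1.23 FPKM in Adv-EV (interval of the ratio 1.90 to 4.44). Nod1, its relative, stood at 22.7 FPKM in Adv-IL-17B and 22.03 FPKM in Adv-EV (interval 0.911 to 1.16). Nlrc5, a regulator of MHC class I genes, stood at 11.3 FPKM in Adv-IL-17B and 8.10 FPKM in Adv-EV, and Ripk2, the kinase of NOD signalling, at 7.28 FPKM in Adv-IL-17B and 6.18 FPKM in Adv-EV. The NOD-like receptors were therefore not uniformly higher, with Nod2, Nlrp3 and Nlrc4 past 2-fold and Nod1 near equal. Nlrp12 was also past 2-fold, with the limit from the filter given above.

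**Figure D4:**
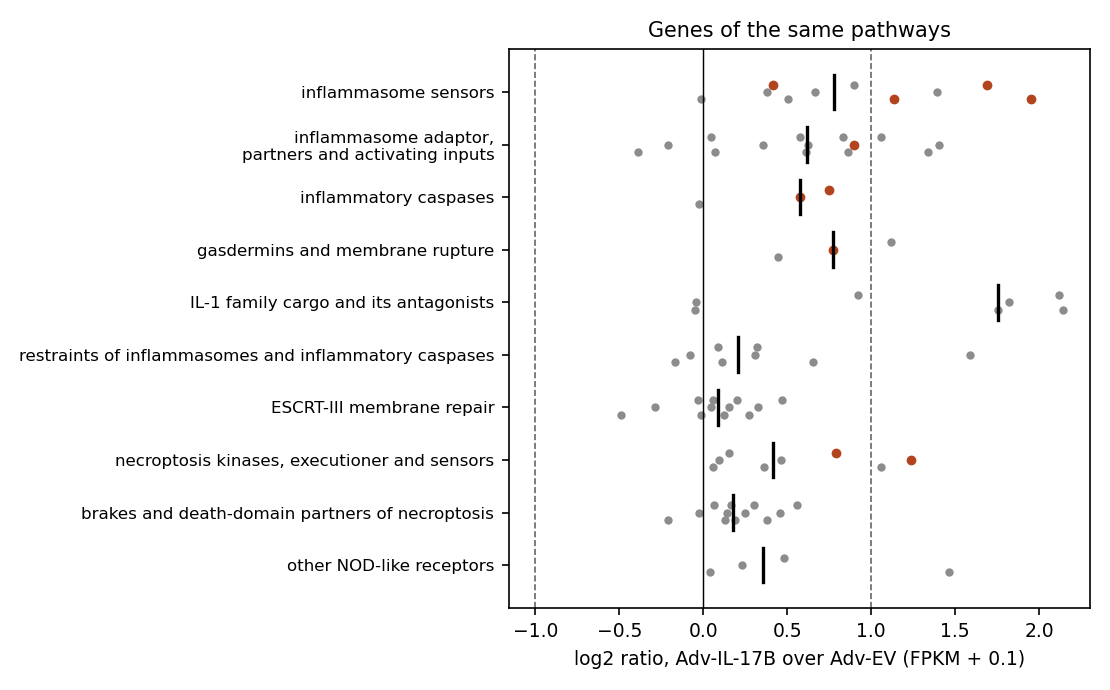
Log2 ratio on FPKM + 0.1, Adv-IL-17B over Adv-EV, of each tested gene of the 10 pathway lists; member genes are in colour, black ticks are list medians, the solid line marks equal levels and dashed lines mark 2-fold. Medians run from 0.09 for ESCRT-III genes to 1.76 for interleukin 1 family cargo and antagonists.

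Markers of neutrophils, monocytes and interstitial macrophages stood higher in Adv-IL-17B, as the members did. Over all genes tested, 48.6% had a ratio above 0 and 3.95% were at least 2-fold higher. The marker lists were chosen with earlier results of these data known, so these shares are given for scale only. All 12 neutrophil markers had ratios above 0, 6 of them past 2-fold, with a median log2 ratio of 0.99 and a summed level of 749 FPKM in Adv-IL-17B and 408 FPKM in Adv-EV. The 6 include Mrgpra2b, which stood at 0.43 FPKM in Adv-EV on about 3 fragments and passed the filter only through Adv-IL-17B. They also include Mmp9, which was barely past the rule (log2 ratio 1.01). All 7 monocyte markers had ratios above 0, 2 of them past 2-fold, with a median log2 ratio of 0.97 and a summed level of 641 FPKM in Adv-IL-17B and 278 FPKM in Adv-EV. The 7 interstitial macrophage markers had a median log2 ratio of 0.64 with 1 past 2-fold, and summed to 1146 FPKM in Adv-IL-17B and 760 FPKM in Adv-EV. None of these markers was listed at 0 in either library.

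Alveolar macrophage markers lay on the other side. Of 12 tested, 1 had a ratio above 0 and 4 were at least 2-fold lower, with a median log2 ratio of -0.71 and a summed level of 343 FPKM in Adv-IL-17B and 512 FPKM in Adv-EV. Most of that sum came from Chil3 (154 FPKM in Adv-IL-17B and 208 FPKM in Adv-EV) and Car4 (81.6 FPKM and 148 FPKM). The 4 lower genes include Fabp1, on about 2 fragments in Adv-IL-17B and 14 in Adv-EV. Dendritic cell markers had a median log2 ratio of -0.26, T and NK cell markers 0.31, B cell markers 0.20 and fibroblast markers 0.06. Alveolar epithelial, airway epithelial and endothelial markers had medians of -0.34, -0.50 and -0.22. The 5 red cell markers had a median of -1.51 and were all at least 2-fold lower. Of the eosinophil and mast cell genes 1 was tested, Prg2, at 0.49. Prg2 rested on about 3 fragments in Adv-IL-17B and 2 in Adv-EV, and passed the filter only through Adv-IL-17B.

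The median of the 10 members, 0.84, thus lay between those of the interstitial macrophage and the monocyte and neutrophil lists, while Nlrp3 (1.95) and Mefv (1.69) lay above all 3 list medians. In whole lung, more cells of a type and more RNA per cell cannot be told apart, and the part of cell composition in the members' ratios was not tested.

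**Figure D5:**
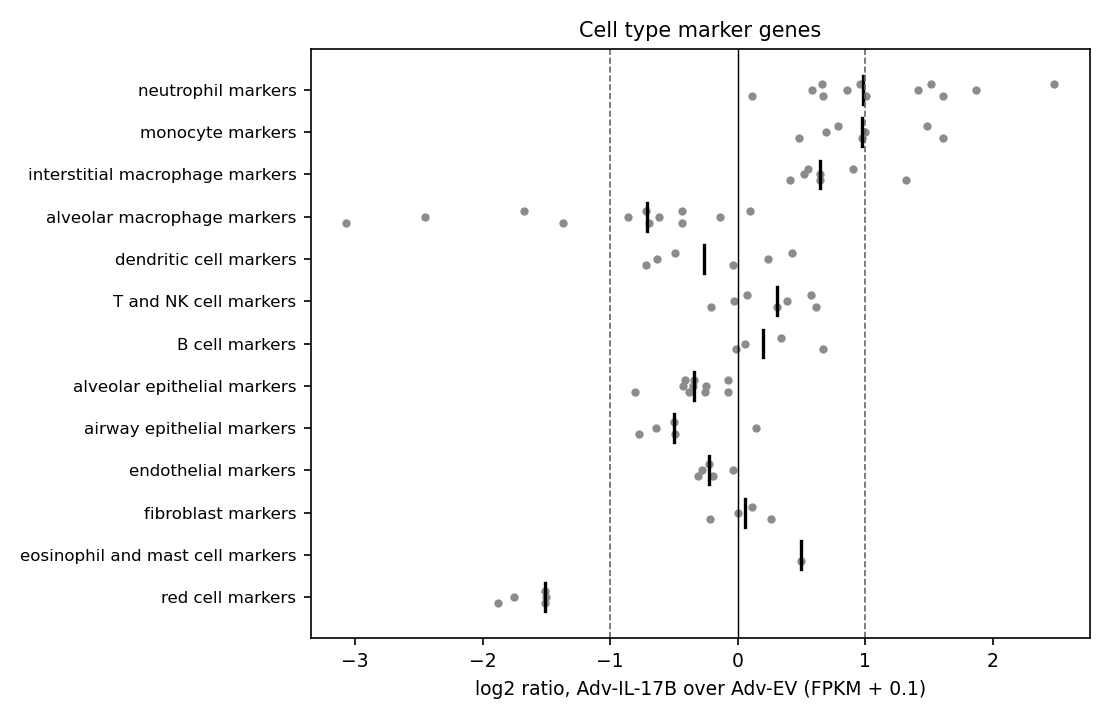
Log2 ratio on FPKM + 0.1, Adv-IL-17B over Adv-EV, of each tested marker gene by cell type; black ticks are medians, the solid line marks equal levels and dashed lines mark 2-fold. Neutrophil, monocyte and interstitial macrophage markers all lie right of equal levels, and red cell markers and all but 1 alveolar macrophage marker lie left of it.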

How the data were processed

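Whole-lung RNA of 1 library per group was compared, grouped by title. The authors deposited FPKM values in 1 column per group per the file headers, rounded to 2 decimals. Bowtie2, HISAT and the build mm10 are named in the submitters' processing notes; how FPKM was computed, filtered and stranded, and how shared reads were treated, is not stated there. FPKM depends on the transcript length and library total used.

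Log2(FPKM + 0.1) was subtracted, Adv-IL-17B minus Adv-EV, for the 15056 genes that averaged 0.5 FPKM or more. Genes past 2-fold were counted and no test was possible. The pathway and marker lists, like the 10 members, were chosen with earlier results of these data known. Named genes were the members and, per pathway list, those past 2-fold and the 3 with the highest mean FPKM, with exceptions stated in the text. The motifs searched were chosen after the data were seen.

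Depth came from the step in low values of genes with 1 transcript of 200 to 3000 bp (GENCODE M21), searched from 0.02 to 0.6 FPKM for 1 kb. The step was 0.181 FPKM in both libraries, and 79.8% (Adv-IL-17B) and 78.2% (Adv-EV) of those values lay within 0.2 of a whole fragment. Fragments summed over genes came to 1.09 times the estimated total in both, so depth is approximate. Intervals are exact, Clopper-Pearson for ratios, Poisson for levels and the conditional odds ratio for the ratio of 2 ratios, at 95%. The procedure was tested on simulated data made and read with the same transcript lengths, so errors in those lengths were not tested. Alternatives covered the pseudocount, filter, scaling, size rule and transcript length. Python 3.11.15, pandas 2.3.3, scipy 1.17.1 and matplotlib 3.10.9 were used.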

Additional observations from a re-analysis of the deposited data

How the results depend on the processing

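All 78 recomputed log2 ratios of the 10 genes (other pseudocounts, filters and scalings) stayed above 0 and inside the counting interval of the main ratio. The count of members past 2-fold stayed at 4 except that it was 3 with a pseudocount of 1 or a mean of at least 2 FPKM, both times without Nlrc4, and 8 with a 1.5-fold rule. Nlrc4 and Nlrp1b gave no value under the stricter filter. The median log2 ratio of all genes was -0.02 at an equal sum, -0.05 at an equal upper quartile and -0.08 without the most abundant genes. Against 594 higher and 404 lower genes in all, the counts were 351 and 176 with a pseudocount of 1, 1146 and 1009 with no filter, 336 and 166 with a mean of at least 2 FPKM, and 1418 and 1235 with a 1.5-fold rule. Higher pathway genes, members included, numbered 16, and 28 with the 1.5-fold rule. Their number was 13 with a pseudocount of 1. It was 14 with a mean of at least 2 FPKM, and 14 when rescaled without the most abundant genes. With no filter 1 pathway gene (Nlrp6) was lower. In the 10 lists, 171 of 180 recomputed counts stayed within 1.5 times the main count. The sensor list fell to 2 genes past 2-fold (Nlrp3 and Mefv) with a pseudocount of 1 or a mean of at least 2 FPKM, without Nlrc4 and Nlrp12. Rescaling without the 10 most abundant genes of each library, chosen after seeing the data, left 1 of 8 necroptosis kinase and sensor genes past 2-fold (Mlkl). Lengths inside the RefSeq span, also chosen after seeing the data, cut the fragments of Pycard to 287 in Adv-IL-17B and 154 in Adv-EV and widened its interval to 1.53 to 2.28. No paired analysis was possible because each group has 1 library. Depth limits Nlrc4 and Nlrp1b most, with 16 and 26 fragments in Adv-EV.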
